A study of Homo sapiens with 4 samples.

Results

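The messenger RNA of 10 genes of the cellular oxygen-sensing pathway was read in Jurkat cells, a long-established T cell line from a human acute leukaemia. They were chosen by name: the factor subunits HIF1A and EPAS1, the oxygen sensors EGLN1 and EGLN3, and the target genes VEGFA, BNIP3, BNIP3L, NDRG1, PDK1 and ANKRD37. All 10 listed names were found among the 25122 genes of the table. The study compared 2 libraries of cells that carried a hairpin RNA directed at BDH1 (shBDH1) with 2 libraries of cells that carried a control hairpin (shcontrol), all labelled wild type in genotype. BDH1 is a mitochondrial enzyme of ketone body metabolism. The labels do not say how many hairpins were used, whether the cells were a clone, or whether libraries that share a hairpin are separate cultures; the p-values therefore reflect the spread among these 4 libraries, which could be technical. No label names a change in oxygen, so hypoxia here is the name of a gene set and not a treatment. Cells with MYC restored, which the study's description mentions, were not analysed here.

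Hypoxia-inducible factor (HIF) is a pair of proteins, an unstable alpha subunit (HIF1A or EPAS1) and the stable partner ARNT. When oxygen is present, prolyl hydroxylases of the EGLN family mark the alpha subunit, and the VHL ubiquitin ligase then has it degraded. When oxygen is short the pair binds a core sequence in its target genes and raises genes of glycolysis, blood vessel growth and mitochondrial turnover. This control acts mainly on the HIF alpha proteins, which were not measured; the values below are mRNA. In T cells HIF1A is also known to be raised at the mRNA level by activation.

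The libraries held 29453383 and 28777374 reads in genes for shBDH1 and 28681511 and 28797402 for shcontrol, so depth hardly differed. BDH1 had 1221 and 1412 normalized counts in the shBDH1 libraries, against 1725 and 1911 in the shcontrol libraries, and MYC had 7453 and 7368 against 14683 and 14804. A normalized count is a gene's read count divided by the size factor of its library. The T cell label was met: 14 T cell markers, among them CD3D, CD3E and LCK, summed to 76414.5 and 78007.6 normalized counts in shBDH1 and to 64282.9 and 64692.1 in shcontrol. Fold changes are shBDH1 relative to shcontrol after adding 1 to each value and taking log2, so that those of genes with few reads come out too small, with their standard error (SE) and a p from limma adjusted by Benjamini-Hochberg over 19301 genes. "Rose" and "fell" are used below an adjusted p of 0.05, and "no call" above it.

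To show the element through which HIF acts, the promoter windows of RefSeq (build GRCh38.p14, 250 bases before to 50 after a start) were searched for the core ACGTG or GCGTG on both strands, with sites that share a central CG counted once. Windows were given for 7 of the 10 genes, not for VEGFA, BNIP3L and NDRG1. Those 7 genes had 9 windows, and 6 of the genes held a core in at least 1 window, while EGLN3 did not. HIF1A and PDK1 each also had a window without a core. Of all 35116 windows of this length, 48.4% held one, which is a share of windows and not of genes. The stretches of HIF1A, EPAS1 and BNIP3 are shown because they lie outside the annotated exons of the gene. Cores are in capitals, and the gene's own strand is read 5′ to 3′.
HIF1A, chr14:61695298-61695323, plus strand: ggctgagagcgGCGTGggctggggtg
EPAS1, chr2:46297279-46297304, plus strand: ggcctgccggcGCGTGcccgcccaca
BNIP3, chr10:131982014-131982076, minus strand: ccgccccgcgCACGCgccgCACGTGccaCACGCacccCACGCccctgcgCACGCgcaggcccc
BNIP3 thus had 5 sites within a stretch of 63 bases. Most have the core GCGTG on the opposite strand, which appears as CACGC on the strand shown. At least 5 sites were held by 1.18% of all windows. HIF1A, EPAS1 and EGLN1 had 1 site each, and PDK1 (in 1 of its 2 windows) and ANKRD37 had 2, as at least 2 were found in 20.25% of all windows. The windows of BNIP3 and ANKRD37 also held CACGTG, the palindrome known as the E-box of MYC, which contains the HIF core and was found in 7.3% of all windows. A core was therefore present in windows of genes that rose, of PDK1, which fell, and of ANKRD37, which had no call; these letters do not show binding.

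Of the 10 genes, 5 rose and 3 fell, and 2 had no call, with a median log2 fold change of 0.37 against -0.01 over all genes tested. The background was high: 41.1% of all 19301 genes were called, 20.3% higher and 20.8% lower, and 60.9% of the 7227 genes with a mean of at least 1000 normalized counts were called. All 10 genes passed the filter on low values, a mean of 10. The genes that rose were HIF1A, EPAS1, EGLN1, BNIP3 and NDRG1, and those that fell were VEGFA, BNIP3L and PDK1. The targets of the pathway therefore did not share a direction. Fitted in limma without an intensity trend, which called 2844 of all genes, HIF1A, NDRG1, VEGFA and PDK1 were called, and EPAS1 (adjusted p = 0.062), EGLN1 (0.084), BNIP3 (0.051) and BNIP3L (0.12) were not. For 8 of the 10 genes, and for 69% of all genes tested, every shBDH1 library lay on the same side of both shcontrol libraries.

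**Figure D1:**
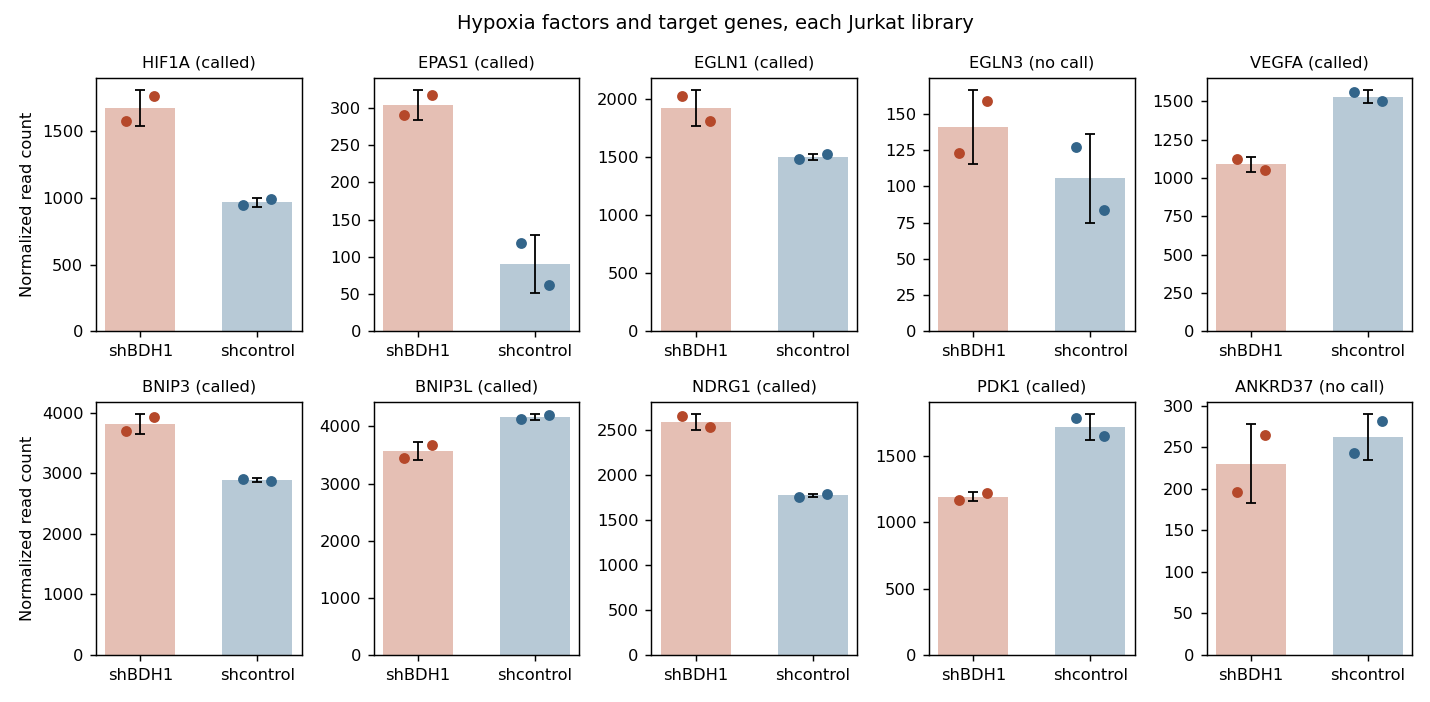
Normalized read counts (vertical axis, separate scale for each gene) of the 10 genes in the 2 shBDH1 and 2 shcontrol libraries. Points are libraries, bars the group mean and error bars the SD (n = 2); the points of the groups overlap for EGLN3 and ANKRD37 and are apart for the other 8.

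**Figure D2:**
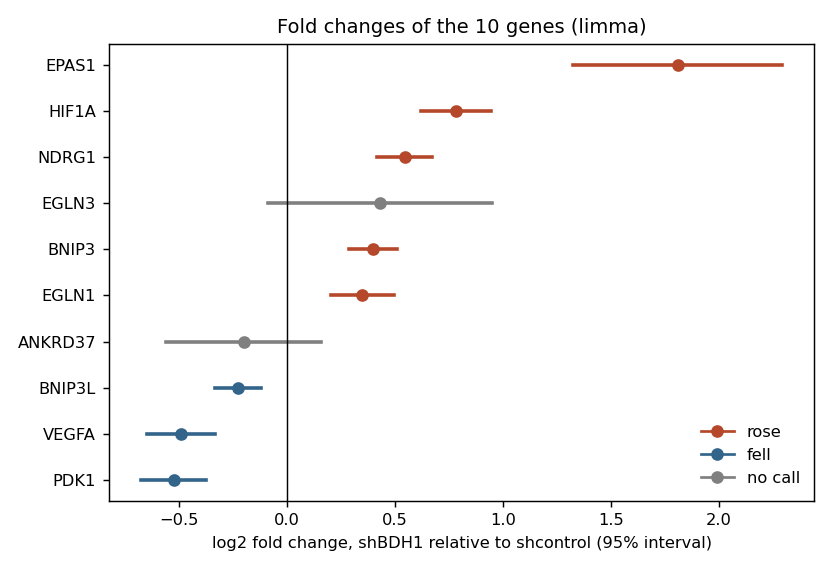
Log2 fold change of shBDH1 relative to shcontrol (horizontal axis) for each gene, with its 95% interval from limma. EPAS1 stands at 1.81 and PDK1 at -0.52, and the intervals of EGLN3 and ANKRD37 include 0.

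Both HIF alpha subunits rose. HIF1A (ENSG00000100644, chromosome 14 from 61695513 to 61748259, hg38), the subunit found in most cells, had 1580 and 1768 normalized counts in the shBDH1 libraries, against 946 and 993 in the shcontrol libraries. Both shBDH1 libraries lay above both shcontrol libraries, and the log2 fold change was 0.79 (SE 0.08, adjusted p = 3.2e-09 in limma). Of all genes called higher, 1232 rose by more.

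EPAS1 (ENSG00000116016, chromosome 2 from 46293667 to 46386703) encodes the alpha subunit best known from endothelial, kidney and lung cells. It had 290 and 318 normalized counts in shBDH1, against 118 and 62.3 in shcontrol, from 295 and 316 reads against 115 and 61. The groups were apart, although the shcontrol libraries also stood far from each other. The log2 fold change was 1.81 (SE 0.24, adjusted p = 3.6e-07 in limma), with a 95% interval of 1.33 to 2.29, and 333 genes called higher rose by more. Without shcontrol replicate 1 the log2 fold change was 2.27, and without shcontrol replicate 2 it was 1.35. Its size therefore depends on single shcontrol libraries, more than the interval shows. Per length EPAS1 remained the lower of the subunits, at 4.58 ± 0.29 TPM, which are reads per transcript length scaled to equal library totals, in shBDH1 and 1.32 ± 0.58 in shcontrol, against 35.8 ± 2.78 and 20.1 ± 0.69 for HIF1A (SD, n = 2 each). The ratio of EPAS1 to HIF1A within a library, into which no size factor enters, was 0.183 and 0.180 in shBDH1 and 0.125 and 0.0628 in shcontrol, a log2 difference of 1.04. With 2 libraries a group the exact two-sided permutation p is 0.333, the smallest this design allows.

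Since EPAS1 is also an endothelial gene, endothelial markers were read beside it. The 6 measured of 9 listed summed to 1582.4 and 1434.0 normalized counts in shBDH1, against 1755.8 and 1978.6 in shcontrol, most of it from PECAM1, which fell. EGFL7 (log2 fold change 1.10) rose, and ESAM (0.53) had no call. TIE1 was called higher (4.29, SE 1.06), but it averaged only 26.8 in shBDH1 and 0.51 in shcontrol. TIE1 passed the filter only through shBDH1, and the added 1 largely sets the size of its fold change. VWF and CLDN5, which were below the filter, averaged 8.93 and 5.92 in shBDH1 and 9.21 and 4.61 in shcontrol. CDH5, KDR and TEK were not analysed here. Of the marker lists of other types, NK markers summed to 459.0 and 392.2 in shBDH1 against 128.3 and 125.7 in shcontrol, with 3 of 5 tested that rose, and B cell markers to 898.3 and 912.1 against 459.0 and 437.4, with 1 of 4 that rose. Sums were 137.6 and 133.7 against 78.0 and 72.6 for myeloid markers (1 of 3 rose), 22.6 and 87.5 against 33.9 and 35.8 for erythroid markers (1 tested, no call), 563.2 and 550.1 against 397.4 and 411.9 for fibroblast (1 of 2) and 485.5 and 402.3 against 329.6 and 326.0 for epithelial markers (1 of 2). Their part in the result was not tested.

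The separate value of HIF1A is uncertain in the bases it shares with other genes. An antisense RNA listed as HIF1A-AS2 (ENSG00000258667) shares 32702 bases of span with HIF1A on the opposite strand, though no exon bases in GENCODE 29. It had 5059 and 5170 normalized counts in shBDH1, against 2898 and 2982 in shcontrol, a log2 fold change of 0.80 (SE 0.05, adjusted p = 2.2e-13 in limma). Its ratio to HIF1A was 3.20 and 2.92 in shBDH1 and 3.06 and 3.002 in shcontrol, so the listed values kept their proportion while both rose. Per length HIF1A-AS2 stood at 1056 TPM in shBDH1 and 590 in shcontrol, far above HIF1A, and the reason was not tested. Another gene of the locus, HIF1A-AS1, which shares 117 exon bases with HIF1A, had a log2 fold change of 0.73 (SE 0.15). The strand setting of the counting is not given in the sources used here, so reads of these genes may be shared and cannot be told apart.

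The shared partner subunit went the other way. ARNT, the stable partner that both alpha subunits need, fell to 890 ± 43.9 normalized counts in shBDH1, against 1525 ± 63.7 in shcontrol (SD, n = 2 each), which is a log2 change of -0.78 (SE 0.08, adjusted p = 5.4e-09 in limma). HIF3A averaged 8.43 in shBDH1 and 2.05 in shcontrol and was below the filter. Of the 3 subunits tested, then, 2 rose and 1 fell.

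Of the oxygen sensors, EGLN1 rose and EGLN3 had no call. EGLN1 (ENSG00000135766, chromosome 1 from 231363751 to 231425044), the main prolyl hydroxylase that sets HIF levels in oxygen, had 2028 and 1812 normalized counts in shBDH1, against 1485 and 1522 in shcontrol. All shBDH1 values were the higher ones, and the log2 fold change was 0.35 (SE 0.07, adjusted p = 0.00019 in limma). EGLN3 (ENSG00000129521, chromosome 14 from 33924231 to 34462774), a hydroxylase that is itself strongly induced by HIF in many cells, had 123 and 159 in shBDH1, against 127 and 83.8 in shcontrol. Here the lower shBDH1 library lay below the higher shcontrol library. The log2 fold change was 0.43 (SE 0.25, adjusted p = 0.18 in limma), and its 95% interval from -0.09 to 0.95 also holds the change seen for EGLN1. Without shcontrol replicate 1 it was 0.73 (adjusted p = 0.049 in limma) and without shcontrol replicate 2 it was 0.13 (0.76). Without shBDH1 replicate 1 it was 0.62 (0.13) and without shBDH1 replicate 2 it was 0.25 (0.6), so its size depends on single libraries of both groups. Per length EGLN3 stood at 2.11 ± 0.38 TPM in shBDH1 and 1.53 ± 0.45 in shcontrol, and EGLN1 at 29.1 ± 2.35 and 22.1 ± 0.37 (SD, n = 2 each).

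The rest of the degradation machinery was split. Of 6 further hydroxylase and VHL complex genes tested, 2 rose, 1 fell and 3 had no call. HIF1AN, the asparagine hydroxylase that blocks HIF activity, had 9032 ± 122 normalized counts in shBDH1 and 7792 ± 145 in shcontrol (SD, n = 2 each; log2 fold change 0.21). The scaffold CUL2 rose by 0.32 and the adaptor ELOC fell by 0.21 on the log2 scale. VHL (0.04), ELOB (-0.14) and RBX1 (0.01) had no call, and EGLN2 was not analysed here. Among 9 coactivators and modulators, 2 rose and 2 fell: the acetyltransferase EP300 (0.22) and the ligase SIAH1 (0.32) were higher, while SIAH2 (-0.78), a ligase that targets EGLN proteins, and RACK1 (-0.22) were lower.

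Among the targets, NDRG1 had the largest rise. NDRG1 (ENSG00000104419, chromosome 8 from 133237171 to 133302022), a stress-responsive gene that HIF induces and that takes its name from being held down by N-MYC, had 2654 and 2532 normalized counts in shBDH1, against 1759 and 1790 in shcontrol. The groups were well apart, with a log2 fold change of 0.55 (SE 0.06, adjusted p = 3.2e-08 in limma). Of the 3 other NDRG genes, NDRG3 fell by 0.39 on the log2 scale, and NDRG2 (0.09) and NDRG4 (0.84) had no call.

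The mitophagy receptors BNIP3 and BNIP3L went opposite ways. Both are outer mitochondrial membrane proteins that recruit autophagosomes to mitochondria, and both are known HIF targets. BNIP3 (ENSG00000176171, chromosome 10 from 131966455 to 131982013) had 3691 and 3925 normalized counts in shBDH1, against 2910 and 2863 in shcontrol, a log2 fold change of 0.40 (SE 0.05, adjusted p = 6.8e-07 in limma). BNIP3L (ENSG00000104765, chromosome 8 from 26382898 to 26505636) had 3453 and 3682 in shBDH1, against 4130 and 4201 in shcontrol, a log2 fold change of -0.22 (SE 0.05, adjusted p = 0.00084 in limma). Neither gene's groups overlapped. The ratio of BNIP3 to BNIP3L was 1.07 in both shBDH1 libraries and 0.705 and 0.682 in the shcontrol libraries, a log2 difference of 0.62 (exact two-sided permutation p = 0.333, the smallest possible). Per length they were the most abundant of the 10 genes: BNIP3L stood at 91.1 ± 3.99 TPM in shBDH1 and 103 ± 1.18 in shcontrol, and BNIP3 at 78.7 ± 3.30 and 58.0 ± 0.70 (SD, n = 2 each).

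BNIP3 has 39 annotated pseudogenes, of which 5 were in the table. The pseudogene BNIP3P11 was the only one of these above the filter and had 545 and 595 normalized counts in shBDH1, against 739 and 714 in shcontrol (log2 fold change -0.35, adjusted p = 0.0074 in limma). Copies of this kind can share reads with the gene, so the split between them is uncertain. BNIP3L overlaps PNMA2 on the opposite strand by 330 exon bases; PNMA2 fell too, by 0.34 on the log2 scale.

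Of 14 other mitophagy receptors and adaptors tested, 4 rose and 3 fell. The receptor BCL2L13 had the largest change, with 507 ± 21.3 normalized counts in shBDH1 and 1355 ± 18.9 in shcontrol (SD, n = 2 each; log2 fold change -1.42, adjusted p = 3.4e-13 in limma). The autophagosome protein GABARAPL1 rose by 0.79, and the cargo adaptors OPTN, TAX1BP1 and SQSTM1 by 0.46, 0.43 and 0.37. PHB2 (-0.23) and FKBP8 (-0.16) fell. The kinase PINK1 (0.12) and the receptor FUNDC1 (0.00) had no call.

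**Figure D3:**
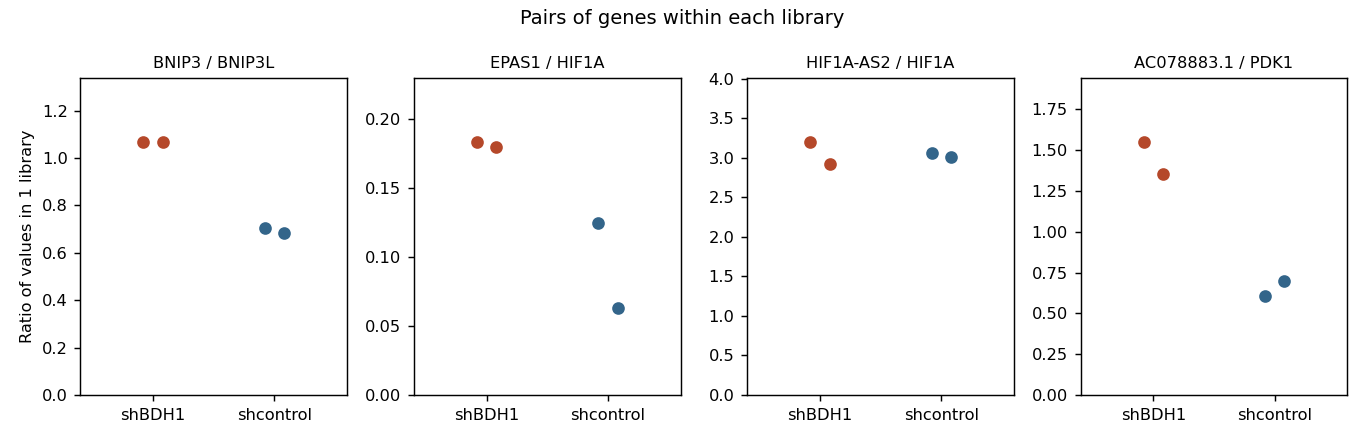
Ratios of the normalized counts of gene pairs within each library (vertical axis, from 0; not per length), with the 2 shBDH1 libraries left of the 2 shcontrol libraries. BNIP3 to BNIP3L was 1.07 in shBDH1 against about 0.7 in shcontrol, while HIF1A-AS2 to HIF1A overlapped between the groups.

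VEGFA and PDK1 fell. VEGFA (ENSG00000112715, chromosome 6 from 43770184 to 43786487), the secreted factor that drives blood vessel growth, had 1124 and 1055 normalized counts in shBDH1, against 1559 and 1500 in shcontrol. Both shBDH1 libraries were lower, by a log2 fold change of -0.49 (SE 0.08, adjusted p = 6.2e-06 in limma). AL136131.3, which lies within VEGFA on the opposite strand with 188 shared exon bases, fell as well (-0.68, adjusted p = 0.017 in limma). VEGFB, a related ligand, fell by 0.85 on the log2 scale. Of 4 receptors and coreceptors tested, 3 rose. FLT1, a VEGF receptor that is known both to bind VEGFA and to be induced by HIF, had 1147 ± 5.34 normalized counts in shBDH1 and 254 ± 2.06 in shcontrol (SD, n = 2 each), which is a log2 change of 2.17 (SE 0.11, adjusted p = 2.1e-15 in limma). The coreceptors NRP1 (2.01) and NRP2 (1.08) rose and FLT4 (0.05) had no call, so of 5 other ligands and receptors tested 3 rose and 1 fell. VEGFC and PGF were below the filter, and VEGFD and KDR were not analysed here.

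PDK1 (ENSG00000152256, chromosome 2 from 172555373 to 172608669) encodes a pyruvate dehydrogenase kinase, which shuts off the entry of pyruvate into the TCA cycle. It had 1168 and 1220 normalized counts in shBDH1, against 1787 and 1650 in shcontrol. The groups were apart and the log2 fold change was -0.52 (SE 0.07, adjusted p = 1.3e-06 in limma). The opposite-strand transcript AC078883.1, which shares 445 exon bases at the 5′ end of PDK1, moved the other way: it had 1811 and 1654 normalized counts in shBDH1, against 1084 and 1149 in shcontrol (log2 fold change 0.63, SE 0.08, adjusted p = 7.9e-08 in limma). Its ratio to PDK1 was 1.55 and 1.36 in shBDH1 and 0.607 and 0.696 in shcontrol. With the strand setting unknown, reads in the shared bases may have been given to either gene.

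The rest of pyruvate dehydrogenase control was mixed. Of 12 further genes tested, 4 rose and 3 fell. PDK2 (-0.62) fell with PDK1 while PDK3 (0.24) rose, so the kinases differed in direction; PDK4 was not analysed here. The catalytic subunit gene PDHA1 (-0.37) and the pyruvate carrier gene MPC2 (-0.61) fell, and PDHX (0.47), the phosphatase gene PDP1 (0.34) and DLAT (0.17) rose.

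ANKRD37 had no call. This ankyrin repeat gene (ENSG00000186352, chromosome 4 from 185396021 to 185400628), known mainly as a HIF target, had 197 and 264 normalized counts in shBDH1, against 243 and 282 in shcontrol. The ranges overlapped, and the log2 fold change was -0.20 with an SE of 0.18 (adjusted p = 0.39 in limma) and a 95% interval of -0.56 to 0.16. It shares 909 exon bases with UFSP2 on the opposite strand, which had no call either (-0.25). Per length ANKRD37 stood at 9.83 ± 2.03 TPM in shBDH1 and 10.9 ± 1.13 in shcontrol. VEGFA stood at 8.31 ± 0.39 and 11.3 ± 0.31 and PDK1 at 8.83 ± 0.26 and 12.3 ± 0.70 (SD, n = 2 each). The exon lengths used were 2580 bases for ANKRD37, 14431 for VEGFA and 14883 for PDK1. The nearness of these values therefore depends on the lengths, an error that the SD does not measure. NDRG1 stood at 29.05 ± 1.01 TPM in shBDH1, beside EGLN1, and at 19.3 ± 0.23 in shcontrol, below EGLN1.

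Beyond the 10 genes, other hypoxia-responsive genes were also split. Of 43 tested from a list of 48, 15 rose, 9 fell and 19 had no call, with a median log2 fold change of 0.21 against -0.01 over all genes tested. Over all genes tested, 20.3% were called higher and 20.8% lower, the shares to set beside this and the other list counts. The oxidoreductase ERO1A (0.61) and the nuclear receptor RORA (0.72) were among those that rose. The largest fall was that of STC2, a secreted glycoprotein that ATF4 also induces, at 1195 ± 25.7 normalized counts in shBDH1 and 4887 ± 18.2 in shcontrol (SD, n = 2 each), followed in order of p by VLDLR (-0.85) and CCNG2 (-0.88). Further standard readouts of hypoxia named here either rose or had no call. DDIT4 (0.44), BHLHE40 (0.68) and KDM3A (0.33) rose, while CA9, ADM and MIR210HG had no call. The carbonic anhydrase CA9 averaged 25.4 in shBDH1 and 7.69 in shcontrol (1.62, adjusted p = 0.058 in limma). ADM averaged 87.6 and 111 (-0.35), and MIR210HG 191 and 170 (0.17). These readouts were named after their values were seen.

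Glucose uptake and glycolysis genes that HIF is known to raise had 5 that rose and 4 that fell of 16 tested, with a median log2 fold change of 0.02. The glucose transporter SLC2A3 rose most, with 1322 ± 0.31 normalized counts in shBDH1 and 383 ± 38.2 in shcontrol (SD, n = 2 each; log2 fold change 1.79, adjusted p = 1.7e-14 in limma). SLC2A1 (0.14), PFKP (0.52), PKM (0.32) and HK1 (0.36) also rose, while TPI1 (-0.49), ENO2 (-0.24), PGK1 (-0.18) and LDHA (-0.16) fell. ALDOA, a glycolytic enzyme gene that dividing cells use, was listed at no more than 3.07 normalized counts in any library; the reason was not tested.

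**Figure D4:**
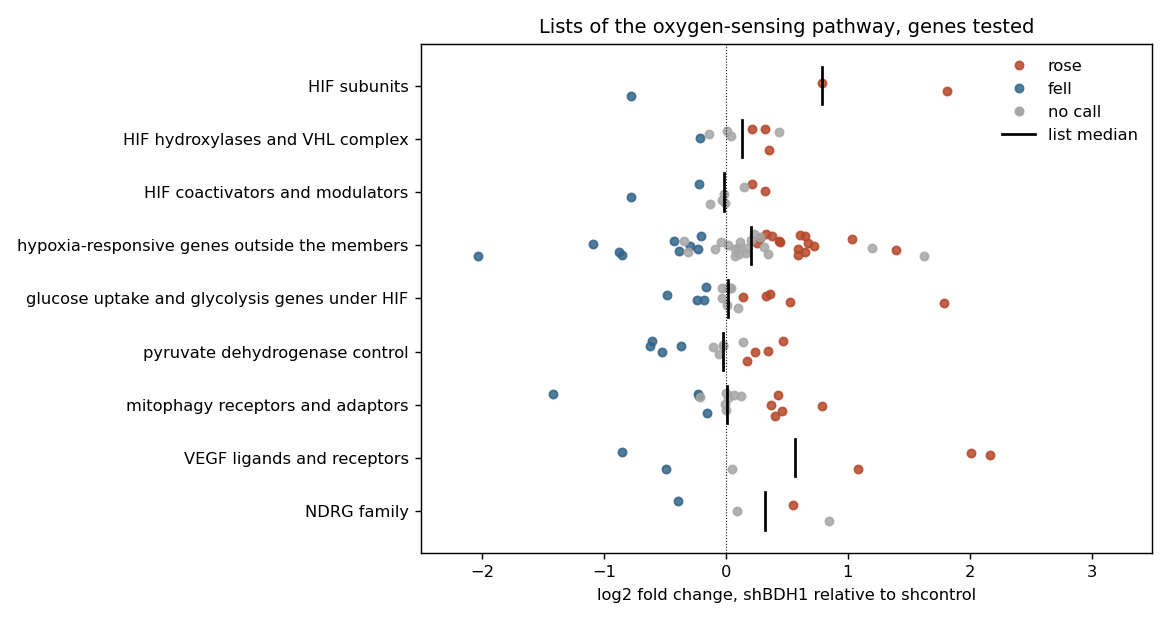
Log2 fold change of shBDH1 relative to shcontrol (horizontal axis) of each gene tested in 9 lists of the oxygen-sensing pathway. Points are genes, coloured by call, and black bars are list medians; each list holds genes on both sides of 0.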

How the data were processed

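RNA was sequenced as paired-end mRNA libraries, per the labels' protocols, in 2 shBDH1 and 2 shcontrol libraries of Jurkat cells. HISAT2 2.2.1, FastQC 0.11.9 and the build hg38 come from the submitters' processing notes. Not given in the sources used here are the program that counted reads, its annotation and strand setting, and how size factors were set. The deposited values are a normalized signal: the authors divided each gene's read count by 1 size factor per library (1.0174 and 0.9944 for shBDH1, 0.9739 and 0.9785 for shcontrol). Every library's values (100%) were whole multiples of its smallest value, within 0.01 reads, which recovered the reads. All 4 value columns were used, and 21 symbols that had turned into dates were renamed from their gene ID.

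The test was limma with an intensity trend on log2(value + 1) over the 19301 genes with a mean of at least 10; edgeR, DESeq2 and limma-voom on the recovered reads, other scalings, filters and pseudocounts, a block for the replicate number and fits without each library were alternatives. Of the degrees of freedom, 2 were residual and 25.8 came from the prior. The fit was tested on simulated reads of 19034 genes, with 8 calls among unchanged genes. Of 50 genes changed 1.25-fold for this comparison it found 17, and of 50 changed 1.5-fold 31. Of 50 changed 2-fold it found 35, and of 50 changed 4-fold 47. Far fewer genes were changed there than were called in the data, so these rates need not carry over. TPM used the recovered reads and the joined exon length of each gene in GENCODE 29, which understates genes with rare long exons. Libraries of a group differed beyond sampling noise (chi-square per degree of freedom 5.13 for shBDH1 and 3.72 for shcontrol, against 46.2 to 49.2 between groups). The members and lists were chosen with earlier results of these data known. Outside the 10 genes, those named are up to the 5 smallest p of each list that passed the test, all HIF subunits and hydroxylase complex genes, and genes that overlap a member; any other was named after its values were seen. These others are PINK1, FUNDC1, OPTN, FLT4, NDRG2, NDRG4, PHB2, FKBP8, PDP1, DLAT, PDK3, ALDOA, SLC2A1, ENO2, PGK1, LDHA, CA9, ADM, MIR210HG, DDIT4, BHLHE40, KDM3A, the cell type markers, the pseudogene and genes named as below the filter or not analysed. Software was matplotlib 3.10.9, scipy 1.17.1, pandas 2.3.3 and numpy 2.4.6 under Python 3.11.15, and DESeq2 1.42.0, edgeR 4.0.16 and limma 3.58.1 under R 4.3.3.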

Additional observations from a re-analysis of the deposited data

How the results depend on the processing

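Across 15 alternative settings, HIF1A, NDRG1, VEGFA and PDK1 kept their direction and call in each. EPAS1, EGLN1, BNIP3 and BNIP3L kept theirs in each but 1, limma without an intensity trend, where 4 of the 10 genes and 2844 of all genes were called and the adjusted p was 0.062 for EPAS1, 0.084 for EGLN1, 0.051 for BNIP3 and 0.12 for BNIP3L; this setting rests on a prior that is the same for low and high genes. With edgeR, DESeq2, limma-voom and the other scalings, filters and pseudocounts, 8 of the 10 genes were called, the same number as reported. Of all genes, these settings called from 6516 (DESeq2) to 7992 (pseudocount 5). Leaving out 1 library gave 8 to 9 of the 10 genes and 6626 to 6902 of all genes. EGLN3 was called only without shcontrol replicate 1 (0.73), and leaving out 1 library moved ANKRD37 from -0.41 to 0.0135 (without shBDH1 replicate 1). Upper-quartile factors moved the median of all genes most, to 0.04 on the log2 scale. The replicate numbers are not known to pair libraries: deviations of same-numbered libraries correlated at 0.0013, and the replicate block called 8325 genes and 8 of the 10. With 2 libraries a group and 61 to 316 reads, EPAS1 and, at like depth, EGLN3 and ANKRD37 have the least precise values, with SEs of 0.24, 0.25 and 0.18.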
